A study of Rattus norvegicus with 19 samples.

Results

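TGF-β1 applied to the rat somatosensory cortex was followed on 3 single arrays, taken 8, 24 and 48 h after treatment, and each was set against 1 array of a sham-operated rat taken at 24 h. These 4 arrays are 4 of the 19 in the series, chosen by their titles alone, and belong to the 10 arrays of set 1. All animals were adult male Wistar rats. For the treated arrays the cortex was perfused with artificial cerebrospinal fluid holding TGF-β1 at 10 ng/ml, while the labels call the control sham operated and name no perfusion for it. Set 1 also holds 3 arrays after bovine serum albumin (0.1 mM; 8, 24 and 48 h) and 3 after sodium deoxycholate (DOC, 2 mM; 7, 24 and 48 h), a detergent-like bile salt used to make the blood-brain barrier leaky. Set 2 holds 9 arrays at 24 h: 3 after albumin at 0.1 mM, 4 after albumin with blockers of TGF-β receptors (an antibody to receptor type 2 at 50 µg/ml and the type 1 receptor kinase inhibitor SB431542 at 100 µM) and 2 shams. The series asks how albumin, TGF-β1 and an opened barrier relate to epilepsy arising in the cortex.

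TGF-β1 is a secreted cytokine that is stored in the matrix in a latent form. Once released it binds the type 2 receptor, which recruits and activates the type 1 receptor kinase, and that kinase phosphorylates SMAD proteins that enter the nucleus and regulate genes of matrix, growth arrest and feedback. In the brain it is known for shaping astrocytes and microglia after injury, and albumin that leaks from blood can engage the same receptors in astrocytes.

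One probe set stood for each gene, and 10019 genes had a log2 signal above 4 on at least 2 of the 10 set 1 arrays. Signals are log2 values, so a difference of 1 is 2-fold. The median correlation of an array with the other set 1 arrays over these genes ran from 0.960 to 0.977. The sham had 0.962. Neuronal markers, all 20 of which were measured, served as a check for neural tissue and cannot tell the cortex from other brain regions. Of these, Snap25, a protein of synaptic vesicle fusion, was named after its values were seen. It had 14.58 in the sham and 14.47, 14.42 and 14.37 at 8, 24 and 48 h. With 1 array a time and 1 sham, whatever was particular to the sham array, the operation or the perfusion cannot be told apart from TGF-β1. An exact permutation test of 3 arrays against 1 cannot give a p below 0.25, so the test used was limma's model over all 10 set 1 arrays, in which the residual of treatment and time served as spread.

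No gene passed an adjusted p of 0.05 in that fit, neither higher (0 of 10019 genes, 0%) nor lower (0 of 10019, 0%). At an unadjusted p under 0.05 there were 750 genes (7.49%), 494 higher (4.93%) and 256 lower (2.56%). The smallest adjusted p was 0.0801. All 3 arrays lay above the sham for 2872 genes (28.7%) and below it for 2465 (24.6%). A fit of all 19 arrays that also models the set, in which the set 2 shams also inform the sham level, called 10 genes higher and 1 lower. The 10 were Ccl2, Ect2, Lgals3, Melk, Ogfr, Otulinl, Pttg1, Rgs16, Rpe65 and Vim, and the 1 was Ddc. Since no gene passed in the main fit, the values below are described as above or below the sham and none is called a change.

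Single arrays differed from the sham more with time. At least 2-fold above the sham were 258 genes at 8 h (2.58%), 266 at 24 h (2.65%) and 541 at 48 h (5.40%). At least 2-fold below were 107 (1.07%), 123 (1.23%) and 130 (1.30%). Of the 716 genes at least 2-fold above the sham on any TGF-β1 array, 457 (63.8%) had their highest value at 48 h, 162 (22.6%) at 8 h and 97 (13.5%) at 24 h. For 231 of these 716 the sham signal was below log2 4, where differences depend on how low signals were background-corrected. Only 99 genes (0.988%) were at least 2-fold above at all 3 times and 27 (0.269%) at least 2-fold below.

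Above the sham, the 4 genes with the smallest p were Calca, Lgals3, Fgl2 and Vim. Calca, which encodes CGRP, a vasodilating neuropeptide, and calcitonin, had 4.39 in the sham and 5.18, 8.49 and 9.65 at 8, 24 and 48 h. It lay 17.1-fold above the sham at 24 h and 38.3-fold at 48 h, and the mean difference was 3.38 ± 0.29 (SE, 3 arrays against 1; adjusted p = 0.0801). Lgals3, a galectin of activated phagocytes, had 5.66 in the sham and 7.54, 10.19 and 11.20 (3.98 ± 0.40, adjusted p = 0.0955). Vim, an intermediate filament of reactive astrocytes, had 8.80 and then 9.87, 11.02 and 12.60 (2.36 ± 0.26, adjusted p = 0.0955). All 3 of these genes stood higher at each later time. Fgl2, a membrane prothrombinase of macrophages and endothelium, was instead level over time, with 3.72 in the sham and 7.51, 7.37 and 7.65 (3.79 ± 0.40, adjusted p = 0.0955). The other 3 Fgl2 probe sets gave differences of 1.65, 2.07 and 3.54. A second probe set of Calca gave 2.63 in the sham and 6.03 at 48 h, and the last stayed between 2.03 and 2.10 on all 4 arrays. Without the DOC array at 24 h in the fit, Calca, Ccl2, Fgl2, Hba-a3 and Mgp passed, and without that at 7 h Ccl2, Cd14 and Hspb1 did. Without DOC at 48 h, Ch25h and Lgals3 passed.

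Judged by the time at which a gene was nearest the sham, the 5 with the largest distance above it were Ccl2, Timp1, Cd14, Lcn2 and Fgl2. Ccl2, the chemokine that attracts monocytes, had 2.83 in the sham and 8.46, 8.02 and 8.40. Timp1, an inhibitor of matrix metalloproteinases and a TGF-β target, had 4.15 and then 8.75, 10.34 and 11.15, which is 24.4-fold, 73.2-fold and 128-fold. For both genes the sham was the lowest of the 4 arrays, and Timp1 was higher at each later time while Ccl2 was level. Cd14, the lipopolysaccharide co-receptor of phagocytes, had 2.17 in the sham and 6.60, 7.36 and 6.66. Lcn2, an iron-binding acute-phase protein, had 2.11 and then 5.40, 5.92 and 8.71. The sham signals of Ccl2, Cd14 and Lcn2 were near the lowest an array gives. With signals below log2 4 set to 4, the mean difference became 4.30 for Ccl2, 2.87 for Cd14 and 2.68 for Lcn2 instead of 5.46, 4.70 and 4.56. With the set 2 shams in the fit, that of Timp1 became 3.72 instead of 5.93.

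**Figure D1:**
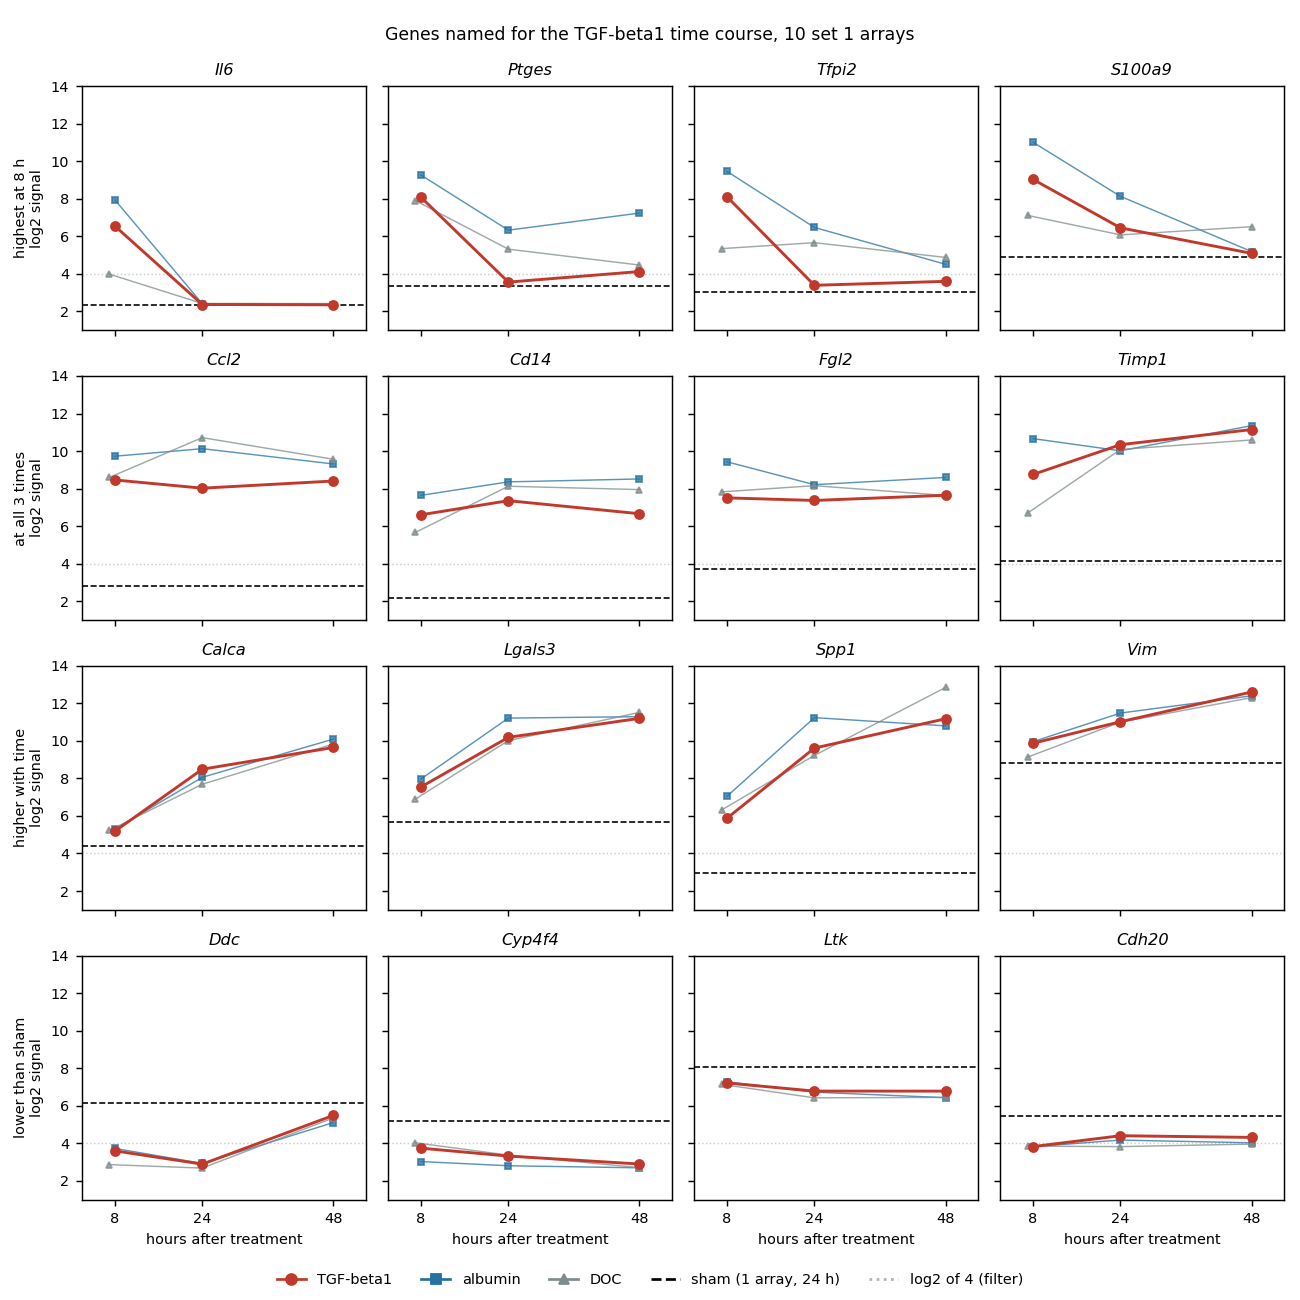
Log2 signal (vertical axis) against hours after treatment for 16 genes named for the time course, with 1 array per point. Red circles are TGF-β1, blue squares albumin, grey triangles DOC, the dashed line is the single sham and the dotted line is log2 of 4. Il6 stands out at 8 h alone (6.55 against 2.33 in the sham), Ccl2 stays near 8 at all 3 times, Calca reaches 9.65 at 48 h, and Ddc lies below its sham level of 6.13 on all 9 treated arrays.

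One group of genes was high at 8 h and back near the sham by 24 h. Il6, the cytokine that signals through gp130 and STAT3, had 2.33 in the sham, 6.55 at 8 h and 2.37 and 2.36 at 24 and 48 h. Tfpi2, a secreted inhibitor of serine proteases, had 3.05 in the sham and 8.11, 3.39 and 3.61. Ptges, the inducible prostaglandin E synthase, had 3.35 and then 8.09, 3.56 and 4.13. For these the 8 h array was high and the other 2 lay within about 1 log2 unit of the sham. S100a9, a calcium-binding protein abundant in neutrophils, had 4.90 in the sham, 9.04 at 8 h, and 6.46 and 5.10 later, so it was still above the sham at 24 h. Depp1, a gene induced by progesterone and by FOXO factors, had 3.92 in the sham, 7.15 at 8 h, and 2.55 and 3.34 later. These 5 were the genes furthest below their 8 h value at 48 h, a difference between single arrays that has no test.

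A second group was highest at 48 h. Spp1, the secreted phosphoprotein osteopontin of activated phagocytes, had 2.97 in the sham and 5.88, 9.61 and 11.18. Sprr1a, a gene of regenerating axons and of squamous epithelium, had 3.02 in the sham and 3.02, 7.31 and 8.07, so it differed from the sham at 24 and 48 h alone. S100a11, a calcium-binding protein, had 4.26 and then 5.06, 6.99 and 9.46, and Ifitm1, an interferon-induced membrane protein, had 1.97 and then 2.97, 5.26 and 7.87. With Calca, these had the largest difference of 48 h minus 8 h. Fcrl2, an Fc receptor-like gene, was among the 5 highest above the sham at 48 h, with 3.42 in the sham and 6.40, 7.73 and 10.21. Serpina3n, a serpin of reactive astrocytes, was highest at 24 h, with 2.33 in the sham and 3.24, 7.50 and 6.02. With signals below log2 4 set to 4, the mean difference became 1.71 for Ifitm1 and 1.84 for Serpina3n, in place of 3.40 and 3.25.

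The 250 bases before the start of 4 of these genes are shown to set the early and the late pattern side by side. RefSeq promoter windows of rat assembly GRCr8 were found for 34 of the 44 genes named outside the lists, and Ccl2, Lgals3, Fgl2 and Cyp4f4 were without one. Motifs were searched on both strands: AP-1 (TGANTCA), NF-kappaB, STAT (TTCNNNGAA) and CRE (TGACGTCA), which are in capitals, and the short SMAD box (CAGAC), which is not. The NF-kappaB search used a fixed, narrow pattern, and looser forms of that site were not searched. Il6 and Tfpi2 were high at 8 h, Calca and Sprr1a at 24 and 48 h, and all 4 windows lie on the minus strand and are written 5′ to 3′ toward the start. Il6 is from chr4:5894576-5894825, Tfpi2 from chr4:32941277-32941526, Calca from chr1:178317530-178317779 and Sprr1a from chr2:180752626-180752875.
Il6: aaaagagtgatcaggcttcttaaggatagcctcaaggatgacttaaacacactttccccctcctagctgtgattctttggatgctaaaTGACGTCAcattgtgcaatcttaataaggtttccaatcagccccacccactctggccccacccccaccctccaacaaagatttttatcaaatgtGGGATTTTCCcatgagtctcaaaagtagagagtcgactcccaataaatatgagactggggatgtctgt
Tfpi2: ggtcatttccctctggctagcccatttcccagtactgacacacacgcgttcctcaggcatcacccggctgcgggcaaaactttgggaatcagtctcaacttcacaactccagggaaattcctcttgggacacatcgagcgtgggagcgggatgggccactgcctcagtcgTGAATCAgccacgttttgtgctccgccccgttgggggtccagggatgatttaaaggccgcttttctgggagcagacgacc
Calca: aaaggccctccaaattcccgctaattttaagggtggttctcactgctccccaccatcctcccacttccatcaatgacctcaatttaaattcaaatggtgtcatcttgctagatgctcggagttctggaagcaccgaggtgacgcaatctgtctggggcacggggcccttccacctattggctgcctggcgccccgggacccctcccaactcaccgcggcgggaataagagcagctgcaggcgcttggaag
Sprr1a: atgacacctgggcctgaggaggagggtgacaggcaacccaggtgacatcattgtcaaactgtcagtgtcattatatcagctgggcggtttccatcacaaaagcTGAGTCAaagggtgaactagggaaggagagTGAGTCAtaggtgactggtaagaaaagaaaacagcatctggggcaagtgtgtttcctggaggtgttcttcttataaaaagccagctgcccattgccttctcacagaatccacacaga

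The Il6 window holds a CRE that begins 162 bases before the start and an NF-kappaB match at 68, that of Tfpi2 an AP-1 match at 80, and that of Sprr1a AP-1 matches at 147 and 117. Calca holds none of the motifs in capitals. The SMAD box is in 3 of the 4 windows, at 6 in Il6, 9 in Tfpi2 and 101 in Calca, and so in early and late genes. Over the 34 genes, AP-1 was present in 5 (14.7%), the SMAD box in 20 (58.8%), NF-kappaB in 1 (2.94%), STAT in 2 (5.88%) and CRE in 1 (2.94%). Among all 33469 RefSeq windows of that length the shares were 6.34%, 42.9%, 0.974%, 7.67% and 1.59%. These shares are per window, while a gene counted where any of its windows held the motif, and Ddc and Plin2 have more than 1. The SMAD box of Plin2 and the STAT match of Ddc were each in only 1 of their windows. A match is a run of letters and was not tested for binding. The NF-kappaB shares count the narrow pattern only. A window without such a match, that of Tfpi2 among them, can still hold a looser form of the site.

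Of 27 reactive astrocyte genes tested (4 more were below the filter and 4 not analysed here), 21 lay above the sham on all 3 arrays, where 28.7% of all genes did, and 1 below. Their median difference was 1.59, against 0.01 over all genes, and it was 0.48 at 8 h, 1.69 at 24 h and 2.56 at 48 h. At an unadjusted p under 0.05 there were 17 higher and 0 lower, against 4.93% and 2.56% of all genes. Beside Vim, Cd14 and Timp1, Stat3, the transcription factor of gp130 cytokines, had 7.48 in the sham and 8.54, 9.04 and 8.60. Ggta1, a galactosyltransferase, had 3.85 and then 4.19, 5.08 and 5.82. Gfap, the classic astrocyte filament, looked at after its values were seen, had 12.07 in the sham, 11.83 at 8 h and 13.60 and 13.94 later. Astrocyte genes that handle potassium, water or glutamate lay near the sham. Their median over 16 genes was 0.10 and changed sign in 4 of 10 alternatives. Kcnj16, a potassium channel subunit, had 4.03 in the sham and 4.94, 4.93 and 5.91, while Aqp4, the water channel, had 12.80 and 12.97, 13.11 and 13.37 and on another probe set 9.74 and 9.51, 9.50 and 9.51.

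Genes of activated phagocytes were also furthest from the sham at 48 h. The median over 19 genes was 0.10 at 8 h, 0.88 at 24 h and 2.80 at 48 h, 14 were above the sham on all 3 arrays (28.7% of all genes were), and 13 were higher at an unadjusted p under 0.05 (4.93% of all genes). Fcgr2b, an inhibitory Fc receptor, had 4.63 in the sham and 6.68, 7.70 and 7.46. Hmox1, the haem-degrading enzyme, had 3.58 and then 6.27, 8.29 and 9.33. Some members differed at 48 h alone: Cybb, the catalytic subunit of the phagocyte NADPH oxidase, had 2.32 in the sham and 2.37, 3.06 and 6.38, and Cd68, a lysosomal membrane protein, had 2.02 and 2.13, 2.13 and 5.83. Both were named after their values were seen. In bulk tissue more cells of a type and more RNA per cell cannot be told apart.

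Members of the microglia list were mostly above the sham at 48 h, when 10 of 14 were at least 2-fold above it (5.40% of all genes were). The list holds Tmem119 and P2ry12 of resident microglia, but also C1q chains, Tyrobp, Itgam and Ptprc. It therefore does not mark the resting state alone. The median over 14 genes was −0.15 at 8 h, 0.48 at 24 h and 1.53 at 48 h, and 5 were above the sham on all 3 arrays (28.7% of all genes) and 1 below. At an unadjusted p under 0.05, 6 were higher and 0 lower, against 4.93% and 2.56% of all genes. Tyrobp, the signalling adaptor of microglial receptors, had 5.27 in the sham and 5.98, 7.01 and 7.89. C1qc, a chain of complement C1q, had 5.40 and then 6.17, 7.33 and 8.29. Ptprc, the leukocyte antigen CD45, had 5.63 and then 6.49, 6.80 and 7.89, and Itgam, the integrin chain CD11b, had 2.59 and then 2.90, 3.91 and 3.93, all under log2 4. Tmem119, a membrane protein of resident microglia, was the 1 below the sham on all 3 arrays, with 5.81 there and 3.37, 4.19 and 5.47. P2ry12, a purine receptor of resident microglia, looked at after its values were seen, had 8.88 in the sham, 8.21 and 8.09 at 8 and 24 h, and 10.01 at 48 h.

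Cytokines and chemokines had their highest median at 8 h, but their summed signal was highest at 48 h. Of 18 genes, 13 were above the sham on all 3 arrays (28.7% of all genes were). At least 2-fold above it were 8, 5 and 6 at 8, 24 and 48 h, where 2.58%, 2.65% and 5.40% of all genes were. The summed signal was 12.09 on the log2 scale in the sham and 12.01, 12.14 and 12.56. The median over the 18 was 0.86 at 8 h, 0.20 at 24 h and 0.18 at 48 h. This median rests on low signals, since the mean over times of 0.62 became 0.07 with values below log2 4 set to 4. Il18, a cytokine of the IL-1 family, was above the sham throughout, with 6.14 there and 7.29, 7.27 and 7.97. Cxcl16, a chemokine that is also a scavenger receptor, had 3.01 and then 4.65, 5.36 and 6.48. Cxcl1, the neutrophil chemokine, named after its values were seen, had 2.50 in the sham, 5.94 at 8 h and 2.62 and 2.61 later. Il33, an alarmin of glia, and Cx3cl1, the neuronal chemokine that engages microglia, both named after their values were seen, lay below the sham on all 3 arrays. Il33 had 8.59 in the sham and 8.32, 7.82 and 7.45, and Cx3cl1 had 11.55 and 11.04, 10.92 and 10.84.

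NF-kappaB and cytokine receptor genes had a median of 0.95 at 8 h and 0.33 at 48 h over 16 genes. Tlr2, a receptor of bacterial lipoproteins, had 2.31 in the sham and 3.69, 3.81 and 4.20. Il1r1, the IL-1 receptor, had 3.28 and then 5.22, 5.31 and 5.77, and Tnfrsf1a, the TNF receptor type 1, had 5.17 and then 6.47, 7.01 and 7.10. The receptors were thus above the sham at each time, but with signals below log2 4 set to 4 the difference of Tlr2 became 0.07 in place of 1.59 and that of Il1r1 1.43 in place of 2.16. Nfkbiz, a nuclear IκB protein, named after its values were seen, was high at 8 h alone, with 5.89 against 3.53 in the sham and 3.82 and 3.76 later. Of 21 interferon and antigen presentation genes, 10 were above the sham on all 3 arrays and 5 below (median 0.40). Over all genes the shares were 28.7% above and 24.6% below, so the 5 below are near that share. Cd74, the invariant chain of MHC class II, had 3.45 in the sham and 6.08, 6.37 and 7.31, and RT1-Da, a class II chain, had 2.42 and then 3.92, 3.97 and 6.14, of which the first 3 values lie under log2 4. Mx2, an interferon-induced GTPase, had 7.60 in the sham and 5.99, 4.33 and 6.17, but another of its probe sets had 2.54 in the sham and 4.88, 6.98 and 5.09, so no direction is given for it.

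Cell cycle genes stood out at 48 h. Of 24 tested, 14 were at least 2-fold above the sham at 48 h, against 2 at 8 h and 2 at 24 h, where 5.40%, 2.58% and 2.65% of all genes were. The median was 0.24, 0.33 and 1.07 at 8, 24 and 48 h. It was also high at 48 h after albumin (1.16) and DOC (1.51). Ccnb2, a mitotic cyclin, had 3.37 in the sham and 4.01, 3.51 and 7.29. Mcm2, a subunit of the replicative helicase, had 3.23 and then 3.54, 4.15 and 5.45, and Mcm4 of the same complex had 6.66 and 7.09, 7.54 and 7.75. Aurka, a mitotic kinase, had 3.67 and then 3.74, 3.73 and 5.11. Cdk1 and Mki67, the mitotic kinase and the classic marker of dividing cells, were looked at after their values were seen. Cdk1 had 2.42 in the sham and 3.39, 2.85 and 7.11, and Mki67 had 3.03 and 3.42, 3.25 and 6.45. The signal of Mcm2 was under log2 4 in the sham and at 8 h, and its mean difference of 1.15 went as low as 0.53 under the alternatives. The helicase gene Mcm4 was thus above the sham by 24 h and the mitotic genes named here mainly at 48 h, on 1 array a time.

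**Figure D2:**
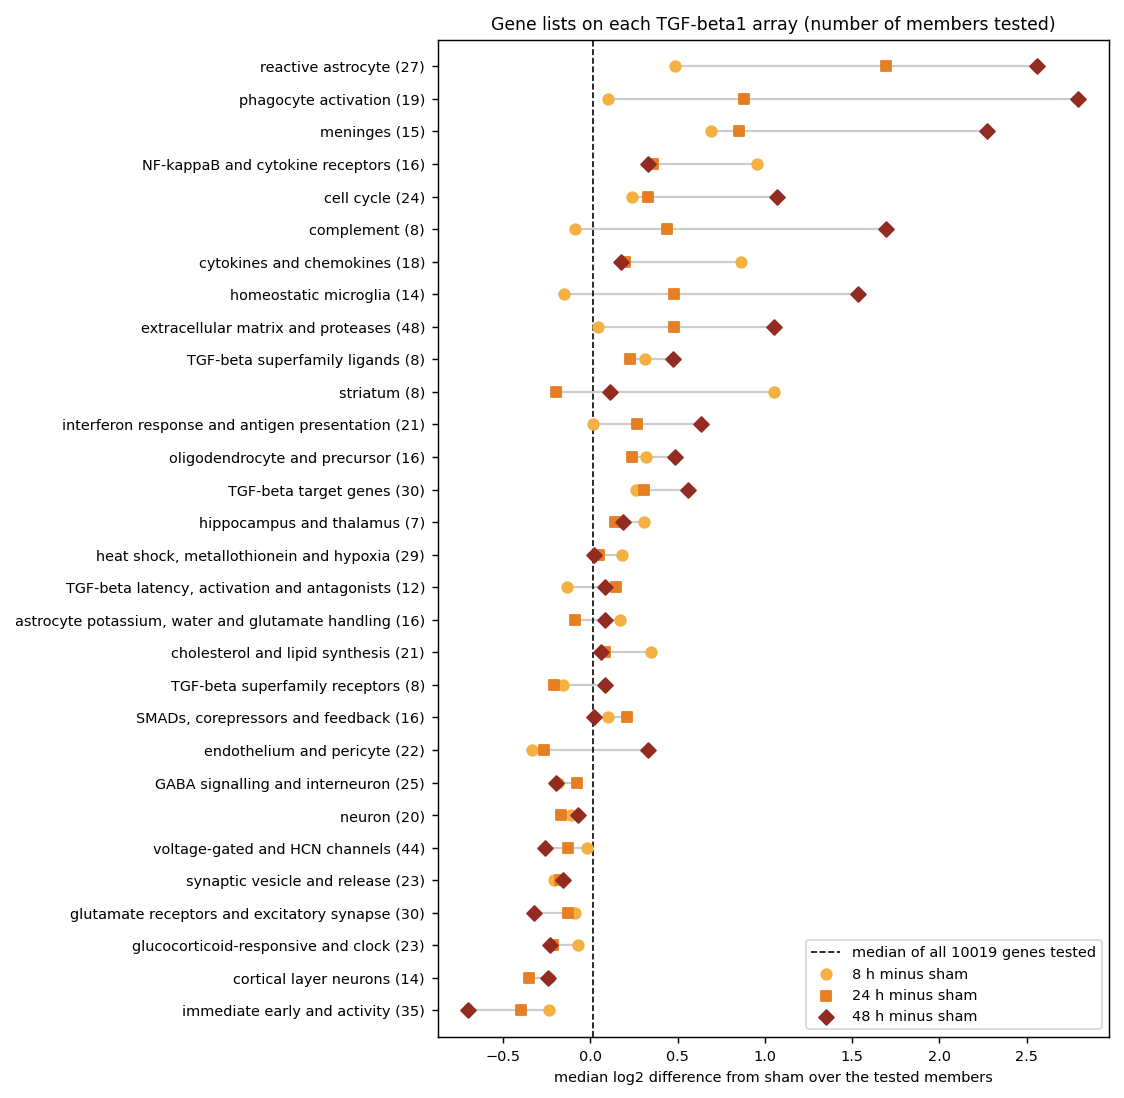
Median log2 difference from the sham (horizontal axis) over the tested members of each gene list (number in brackets) on the TGF-β1 arrays at 8 h (circles), 24 h (squares) and 48 h (diamonds), and the dashed line is the median of all 10019 genes. Reactive astrocyte, phagocyte and complement lists lie further right at each later time (the phagocyte list from 0.10 to 2.80), cytokines and chemokines go from 0.86 to 0.18, and immediate early genes lie left of the line at each time.

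The ligands, receptors and SMADs of the TGF-β pathway had list medians within 0.5 of the sham, and some of its targets lay further away. Of 105 genes on 5 lists, 71 were tested, 22 were below the filter and 12, with Tgfbr2 among them, were not analysed here. Over the 71, 32 were above the sham on all 3 arrays and 11 below, against 28.7% and 24.6% of all genes. The median difference was 0.21, against 0.01 for all genes. At an unadjusted p under 0.05, 6 were higher and 3 lower, against 4.93% and 2.56% of all genes. At least 2-fold above at all 3 times were 7, against 0.988% of all genes.

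Among 8 ligands, Tgfb1 had 3.58 in the sham and 4.17, 4.16 and 5.21 (0.94 ± 0.45, adjusted p = 0.748). Tgfb2 had 7.28 and then 7.81, 8.20 and 7.74. Inhba, the activin A subunit, had 7.63 and then 8.98, 8.03 and 7.94. Gdf11, a ligand of activin receptors, was below the sham throughout, with 8.70 there and 7.77, 7.87 and 8.01, and was the 1 ligand with an unadjusted p under 0.05. Bmp4 had 6.75 in the sham, 6.54 and 6.42 at 8 and 24 h, and 7.50 at 48 h.

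None of the 8 receptors tested had all 3 arrays above the sham, 1 had all 3 below, and the median of 0.06 changed sign in 2 of 10 alternatives. Tgfbr1, the type 1 receptor, had 9.37 in the sham and 8.70, 9.01 and 10.46. Eng, a co-receptor of endothelium, had 4.98 and then 5.43, 4.23 and 6.24. Acvr2b, an activin receptor, had 5.94 and then 5.50, 5.30 and 4.97. Both Tgfbr1 and Eng were thus on either side of the sham by time.

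Of 12 genes of latency, activation and antagonism, Fbn1, the microfibril protein that anchors latent TGF-β, had 4.41 in the sham and 5.68, 6.23 and 7.16 (1.95 ± 0.67). Fstl1, a secreted glycoprotein that binds BMPs, had 8.15 and then 8.36, 8.46 and 9.25. The BMP antagonist Grem1 was below the sham and lower at each later time, with 4.99 there and 4.13, 3.70 and 3.32 (−1.27 ± 0.39), and Nog, another BMP antagonist, had 8.34 and then 8.14, 8.06 and 7.72. Itgav, the integrin chain that activates latent TGF-β, had 9.56 and then 10.50, 10.30 and 9.36, but a dimmer probe set had 4.13 and then 2.87, 3.39 and 3.41.

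SMADs differed little from the sham. Over 16 genes the median was 0.04 and none had an unadjusted p under 0.05. The signal transducers Smad2 and Smad3 had 8.14 and 7.53 in the sham, Smad2 with 7.72, 8.15 and 8.07 and Smad3 with 7.81, 7.53 and 7.00 at 8, 24 and 48 h. Their partner Smad4 had 8.83 and then 9.03, 8.90 and 9.10. Smad7, the inhibitory SMAD that TGF-β induces, had 6.73 and then 7.00, 7.10 and 6.90. Skil, a corepressor and target, had 11.40 and then 11.72, 11.89 and 11.62, and Pmepa1, a feedback inhibitor, had 7.52 and then 7.82, 8.63 and 7.99. The last 3 were above the sham on each array, by at most 1.11, which is the value of Pmepa1 at 24 h. Tgif1, a corepressor, had 5.69 and then 6.18, 6.61 and 6.19.

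Of 30 target genes tested, 20 were above the sham on all 3 arrays and 4 below, against 28.7% and 24.6% of all genes. The median was 0.34, against 0.01 over all genes. At an unadjusted p under 0.05, 5 were higher and 1 lower, against 4.93% and 2.56% of all genes. The 5 were all of matrix. Beside Timp1, Fn1, the adhesive glycoprotein fibronectin, had 6.39 in the sham and 8.38, 8.02 and 9.18 (2.13 ± 0.42). Col1a2, a chain of type I collagen, had 3.80 and then 6.0, 5.78 and 8.90 (3.10 ± 0.45), Col3a1, type III collagen, had 4.21 and then 5.38, 6.23 and 8.82, and Lox, which crosslinks collagen, had 2.32 and then 4.61, 6.04 and 5.96. Another Col1a2 probe set had 3.19 in the sham, 3.20 and 3.27 at 8 and 24 h, and 7.61 at 48 h. With signals below log2 4 set to 4, the difference of Lox became 1.54 and that of Tgfbi 0.97 in place of 2.01. With the set 2 shams in the fit, the difference of Col1a2 was 1.66 and that of Lox 1.30, in place of 3.10 and 3.22. Tgfbi, a secreted matrix protein, had 2.77 and then 3.47, 4.87 and 6.02.

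Tagln, an actin-binding protein of smooth muscle, had 6.57 in the sham and 8.73, 10.17 and 8.74 (2.64 ± 1.63, adjusted p = 0.879), so it was as far above the sham as the matrix targets but with a wide error. Several targets lay near the sham. Ccn2, connective tissue growth factor, had 9.84 in the sham and 9.89, 10.07 and 10.38. Id1, an inhibitor of helix-loop-helix factors, had 8.47 and 8.69, 8.58 and 9.19. Acta2, smooth muscle actin, had 6.24 and 6.61, 6.35 and 6.71, and Tsc22d1 was level at 13.16 and 13.23, 13.06 and 13.16. Cdkn1a, the cell cycle inhibitor p21, was highest at 8 h, with 4.31 in the sham and 6.26, 4.89 and 5.24. Angptl4, a secreted regulator of lipase, was also highest then, with 5.45 and 8.27, 5.94 and 6.20. Bhlhe40, a repressor tied to the clock, was below the sham and lower at the later times, with 7.92 there and 7.09, 6.26 and 6.19 (−1.41 ± 0.36), and Junb had 8.09 and 7.17, 6.94 and 7.07.

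**Figure D3:**
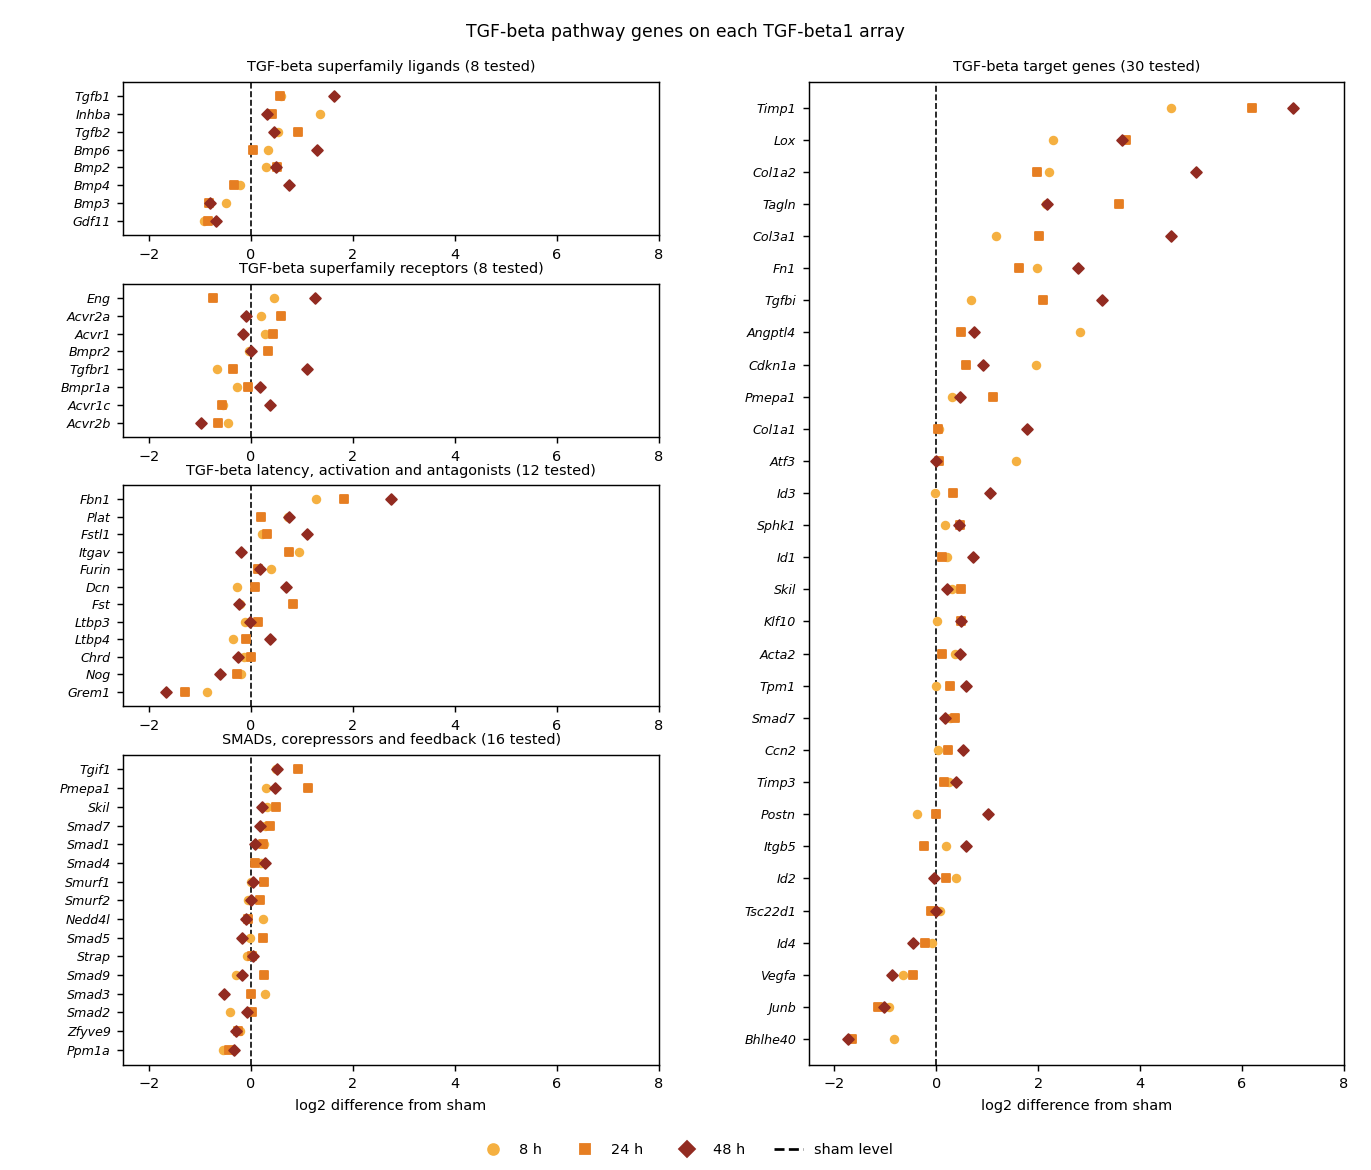
Log2 difference from the sham (horizontal axis) on the TGF-β1 arrays at 8 h (circles), 24 h (squares) and 48 h (diamonds) for each tested member of 5 lists, ordered by mean difference, and the dashed line is the sham level. Points of ligands, receptors and SMADs cluster near 0, and among the 30 targets Timp1, Lox, Col1a2, Tagln, Col3a1, Fn1 and Tgfbi lie to the right at all 3 times.

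Matrix genes stood further above the sham at the later times, and so did markers of the meninges. Of 48 matrix and protease genes, 26 lay above the sham on all 3 arrays and 5 below, 17 were higher at an unadjusted p under 0.05 and 0 lower. The shares of all genes are 28.7%, 24.6%, 4.93% and 2.56% in that order. The median was 0.04, 0.48 and 1.06 at 8, 24 and 48 h. Nid1, a basement membrane protein, had 6.25 in the sham and 7.56, 7.87 and 8.28, and Col6a3, type VI collagen, had 2.50 and then 2.59, 4.56 and 5.62. Another Nid1 probe set had 4.65 in the sham and 4.26, 4.25 and 4.63, so no direction is given for Nid1, and the difference of Col6a3 became 0.73 in place of 1.76 with signals below log2 4 set to 4. Fbln2, an elastic fibre protein, had 6.20 and then 5.81, 8.03 and 8.74. Of 15 meninges markers tested, 14 were above the sham on all 3 arrays and 7 were higher at an unadjusted p under 0.05, against 28.7% and 4.93% of all genes, with a median of 1.43. Mgp, a matrix inhibitor of calcification, had 7.58 in the sham and 9.73, 9.36 and 9.85, and Igfbp2, which binds insulin-like growth factors, had 7.85 and then 7.96, 9.51 and 10.40.

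The summed signal of the meninges list was 11.87 on the log2 scale in the sham and 12.58 to 13.07 on the TGF-β1 arrays, 11.89 to 13.24 after albumin and 11.35 to 11.82 after DOC. Another 10 of its genes were below the filter, with the transporters Slc22a8, Slc13a4 and Slc6a13 and the transcription factors Foxc1, Foxc2 and Zic1 among them. With the set 2 shams in the fit the median of the meninges list was 0.06. Of the matrix list, 6 tested genes also stand on the meninges list (median 2.21) and 42 do not. Over those 42, a split made after the values were seen, the median was 0.03 at 8 h, 0.42 at 24 h and 0.99 at 48 h, and 21 were above the sham on all 3 arrays. Of the 30 TGF-β targets, the 27 outside the meninges list had a median of 0.33. The part of meningeal tissue in the collagen values was not tested.

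**Figure D4:**
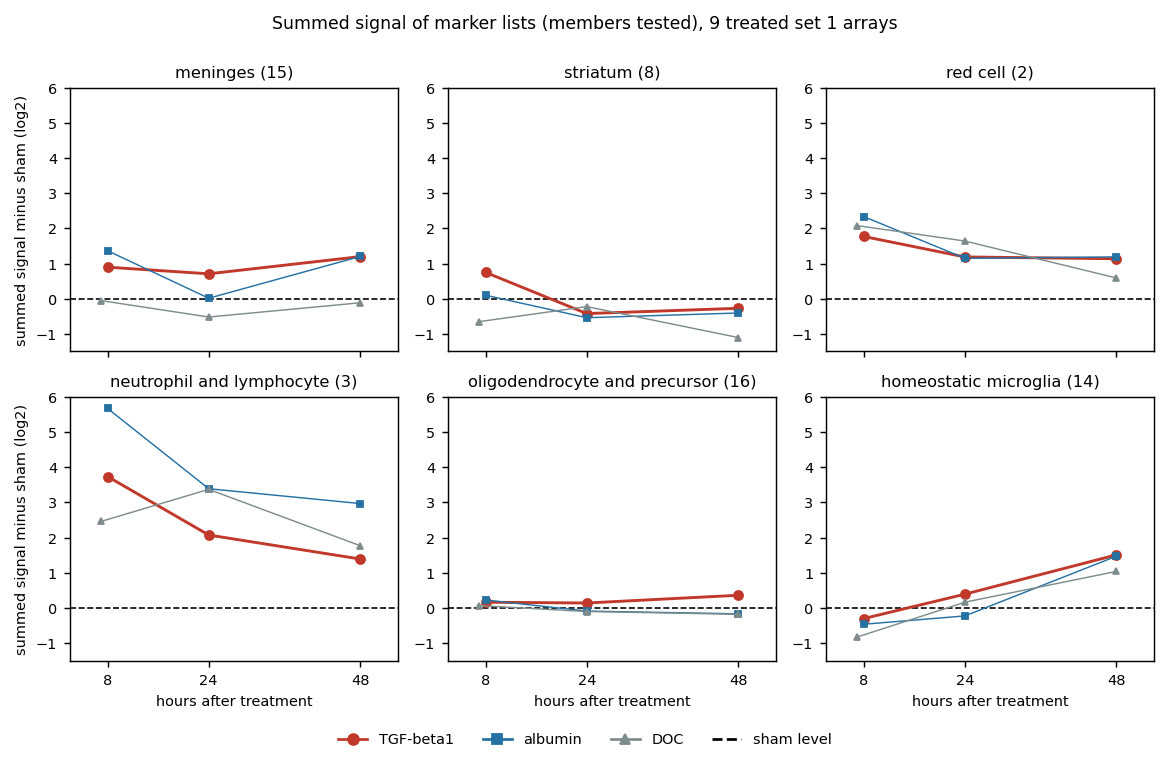
Summed signal of 6 marker lists minus that of the sham (vertical axis, log2) against hours after treatment for the 9 treated set 1 arrays, with tested members in brackets. Red circles are TGF-β1, blue squares albumin, grey triangles DOC, and the dashed line is the sham level. The meninges and red cell lists lie above the sham on all 3 TGF-β1 arrays, the striatum list is above it at 8 h alone, and the neutrophil list is highest at 8 h and lowest at 48 h.

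Markers of blood and of neighbouring tissue also differed from the sham. The 2 red cell genes tested were above the sham on each array: Hbb, the haemoglobin beta chain, had 11.35 in the sham and 13.12, 12.54 and 12.49, and Alas2, the erythroid haem synthesis enzyme, had 3.61 and then 6.02, 5.69 and 5.05. Of the 17 neutrophil and lymphocyte genes, 3 were tested, all above the sham, and 10, with the T cell genes Cd3d, Cd3e and Cd3g among them, were below the filter. S100a8, the partner of S100a9, had 3.34 in the sham and 6.87, 3.46 and 3.43, and Mmp9, a gelatinase, had 3.27 and then 4.38, 6.79 and 6.41. At least 2-fold above the sham at 8 h were 5 of the 8 striatum markers tested (2.58% of all genes were). The 8 had a median of 1.05 at 8 h, −0.20 at 24 h and 0.11 at 48 h. Their summed signal was 11.08 in the sham and 11.83, 10.66 and 10.81, against 10.54 to 11.18 after albumin and 9.98 to 10.86 after DOC. Drd1, the dopamine receptor, had 5.64 in the sham and 7.58, 6.30 and 6.21, and Rgs9, a regulator of G protein signalling, had 4.05 and then 6.63, 4.07 and 4.04. Pdyn, another marker on that list, went the other way, with 9.29 in the sham and 9.04, 8.12 and 7.98. Ttr, the thyroid hormone carrier of choroid plexus, was below the sham, with 5.31 there and 3.61, 3.63 and 3.30. Enpp2, the other choroid plexus gene tested, lay near the sham, with 11.81 there and 11.73, 11.66 and 12.10. The part of these tissues in values of the 8 h array was not tested.

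Neuronal lists lay slightly below the sham. The medians were −0.21 over 30 genes of glutamate receptors and the excitatory synapse, −0.07 over 25 of GABA signalling, −0.15 over 44 voltage-gated and HCN channels, −0.19 over 23 of vesicle release and −0.08 over 20 neuron markers. The median over all genes was 0.01. Higher members at an unadjusted p under 0.05 numbered 0 on these 5 lists, where 4.93% of all genes were higher. Lower ones numbered 3, 4, 0, 4 and 1, where 2.56% of all genes were lower. The vesicular glutamate transporter Slc17a6 was lower at each later time, with 7.76 in the sham and 6.95, 6.24 and 4.01. Grm5, a metabotropic glutamate receptor, had 9.46 and then 8.64, 8.81 and 6.96, and Grm7, a presynaptic one, had 7.38 and then 5.86, 6.75 and 6.06. Gabrb2, a GABA-A receptor subunit, had 12.34 and then 11.83, 11.67 and 11.65, and Calb1, the calcium-binding protein calbindin, had 11.76 and then 11.21, 10.13 and 10.27. Pclo, a scaffold of the presynaptic active zone, had 8.07 and then 7.42, 7.33 and 7.38. Of the 44 channel genes, 20 lay below the sham on all 3 arrays, where 24.6% of all genes did, yet 0 had an unadjusted p under 0.05. A further list, of cortical layer neurons, had a median of −0.25 over 14 genes. On all 3 arrays 0 of them lay above the sham and 7 below, where 28.7% and 24.6% of all genes did. At an unadjusted p under 0.05, 0 were higher and 1 lower.

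Immediate early genes were below the sham. Of 35 tested, 19 lay below it on all 3 arrays and 7 above, where 24.6% and 28.7% of all genes did. The median was −0.24, −0.39 and −0.70 at 8, 24 and 48 h. Nr4a1, a nuclear receptor induced by activity, had 10.37 in the sham and 8.96, 8.23 and 7.89 (−2.01 ± 0.44). Egr1 had 12.48 and then 11.70, 11.39 and 11.20, Egr2 had 8.84 and then 7.58, 5.88 and 5.0, and Arc, a gene of synaptic plasticity, had 9.47 and then 7.87, 7.50 and 7.51. Ier3, a stress-induced survival gene, lay above, with 6.11 and then 7.73, 7.00 and 7.56. With the set 2 shams in the fit the difference of Nr4a1 was −0.83 and that of Arc −0.54, in place of −2.01 and −1.84, and the median of the list was −0.18.

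The genes with the smallest p below the sham were Ddc, Cyp4f4, Ltk and Cdh20. Ddc, the decarboxylase that makes dopamine and serotonin, had 6.13 in the sham and 3.60, 2.89 and 5.48 (−2.14 ± 0.29, adjusted p = 0.105). Cyp4f4, a cytochrome P450 of fatty acid hydroxylation, had 5.17 and then 3.74, 3.32 and 2.89 (−1.85 ± 0.26, adjusted p = 0.105). Ltk, a receptor tyrosine kinase, had 8.08 and then 7.21, 6.78 and 6.78, and Cdh20, a cadherin, had 5.44 and then 3.82, 4.40 and 4.31. Ddc was nearest the sham at 48 h, and Cdh20 was furthest from it at 8 h. Cyp4f4 lay under log2 4 on each TGF-β1 array, where signals carry little order, so no course over time is given for it. With signals below log2 4 set to 4, the difference of Cyp4f4 became −1.17. At the weakest time the largest distances below the sham were those of Ube3al1, Ttr, Arc, Ythdf2 and Cyp4f4. Ube3al1 had 9.45 in the sham and 6.61, 6.89 and 6.16, and Ythdf2, a reader of methylated RNA, had 9.79 and then 8.19, 8.05 and 7.55. The other Ythdf2 probe set had 7.90 and then 7.29, 7.55 and 7.45, a difference of −0.46. With the set 2 shams in the fit the differences of Ube3al1 and Ythdf2 were −0.91 and −0.89, in place of −2.90 and −1.86.

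Other genes were far below the sham at 1 or 2 of the times. RT1-T24-4, a class I MHC gene, had 5.95 in the sham, 2.15 and 2.41 at 8 and 24 h, and 5.38 at 48 h. Chrm1, a muscarinic acetylcholine receptor, had 5.48 and then 2.95, 4.09 and 5.15. Both were near the sham again at 48 h, as Tmem119 was. Nat8f3, an N-acetyltransferase family gene, had 6.01 and then 4.88, 2.42 and 3.37. Sgcb, a sarcoglycan, had 9.83 and then 8.70, 6.51 and 9.60, but its other probe sets were level over the 4 arrays.

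The 24 h array alone matches the sham in time after treatment, and the labels used here give no hour of day. Bmal1, the clock activator, had 7.62 in the sham and 6.42, 6.51 and 6.59, and Per1, a clock repressor, had 6.68 and then 6.43, 5.80 and 5.11. Fkbp5, a glucocorticoid target that binds the receptor complex, was high at 8 h, with 7.00 in the sham and 9.56, 7.44 and 7.40, and Mt2A, a metallothionein, had 9.56 and then 11.11, 11.41 and 10.63. Over 23 genes responsive to glucocorticoid or of the clock the median was −0.22, with 4 above the sham on all 3 arrays and 11 below. Among all genes 28.7% were above and 24.6% below.

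Oligodendrocyte genes were slightly above the sham, with a median of 0.35, against 0.01 over all genes. Of 16 tested, 12 were above on all 3 arrays and none below, where 28.7% and 24.6% of all genes were. Ugt8, the enzyme of galactolipid synthesis in myelin, had 10.08 in the sham and 10.74, 10.78 and 11.12, and Enpp6, a choline phosphodiesterase of new oligodendrocytes, had 5.32 and then 6.10, 6.0 and 5.98. Endothelial and pericyte genes had a median of −0.04 over 22 genes that changed sign in 3 of 10 alternatives. Abcg2, an efflux transporter of the barrier, had 7.39 and then 6.12, 4.50 and 7.90, and Vwf, the clotting factor of endothelium, had 5.93 and then 6.57, 7.02 and 8.02.

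Set against albumin and DOC at matched times, without use of the sham, TGF-β1 differed in no gene at an adjusted p of 0.05 (0 of 10019, 0%). At an unadjusted p under 0.05 there were 1769 genes (17.7%), 1206 higher and 563 lower (5.62%). All 3 TGF-β1 arrays lay above all 6 others for 496 genes (4.95%) and below them for 266 (2.65%). The fit of all 19 arrays called 190 genes higher and 39 lower, and the fit without the DOC array at 48 h 1 and 14.

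Among the genes with the smallest p, Psd, which activates the small GTPase ARF6, had 6.73, 6.66 and 6.48 at 8, 24 and 48 h, near the sham's 6.70, while albumin had 5.89, 6.25 and 5.49 and DOC 4.63, 4.48 and 4.64 (TGF-β1 minus others 1.39 ± 0.15, adjusted p = 0.139). Myh14, a non-muscle myosin, had 7.82, 7.60 and 7.31, against 7.07, 6.99 and 7.02 after albumin and 6.39, 6.46 and 6.40 after DOC. Paqr6, a progestin receptor, had 6.99, 6.46 and 6.39, against 6.24, 5.40 and 5.15 and 4.99, 5.19 and 4.23. In all 3 genes the TGF-β1 arrays were highest at each time and DOC lowest. The fourth, Brcc3-ps7, a pseudogene, had 7.52, 7.17 and 7.01, between 8.10 to 8.63 after albumin and 2.11 to 3.00 after DOC, so its difference of 1.85 ± 0.18 (adjusted p = 0.0847) rests on the DOC arrays.

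Lower after TGF-β1 were Ubn1, Colgalt2, Plin2 and Ano6. Plin2, which coats lipid droplets, had 3.77, 5.80 and 7.43, against 6.05, 7.83 and 8.27 after albumin and 6.06, 8.12 and 8.44 after DOC (−1.79 ± 0.25, adjusted p = 0.145). Against its sham of 4.92 it was lower at 8 h, while another Plin2 probe set had 3.83 in the sham and 5.40, 5.75 and 6.88, so no direction from the sham is given at 8 h. Ano6, a phospholipid scramblase, had 7.02, 7.52 and 7.80, against 8.06, 8.74 and 8.63 and 8.22, 9.07 and 8.36. Ubn1, a chaperone of histone H3.3, had 8.55, 8.51 and 8.00, against 9.15, 9.22 and 8.62 and 10.04, 9.89 and 9.35 (−1.03 ± 0.09, adjusted p = 0.0847), but its other probe set had 6.43, 6.38 and 6.42 and 6.49 in the sham. Colgalt2, a collagen galactosyltransferase, had 4.60, 4.94 and 5.43, against 5.70, 6.63 and 6.79 and 5.80, 6.18 and 6.11. For all 4 the TGF-β1 arrays were lowest at each time.

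**Figure D5:**
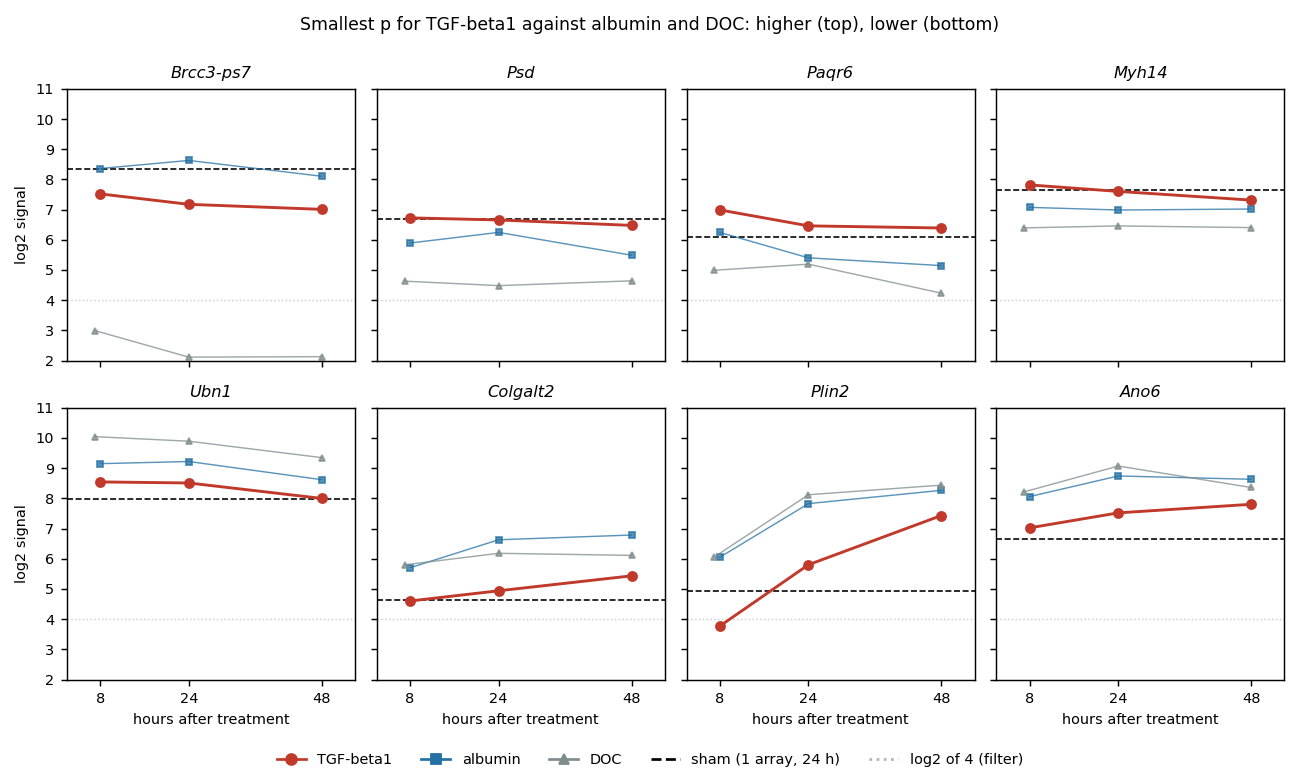
Log2 signal (vertical axis) against hours after treatment for the 4 genes with the smallest p in each direction for TGF-β1 against albumin and DOC, with 1 array per point. Red circles are TGF-β1, blue squares albumin, grey triangles DOC, the dashed line is the sham and the dotted line log2 of 4. Psd, Paqr6 and Myh14 are highest after TGF-β1 at each time, Brcc3-ps7 is near 2 to 3 after DOC alone, and Plin2 goes from 3.77 to 7.43 after TGF-β1 and is below both other agents at each time.

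The lists were also compared between the agents. The median of TGF-β1 minus the others was −0.21 for reactive astrocyte genes, −0.17 for phagocyte genes, −0.11 for TGF-β targets and 0.11 for matrix genes, against 0.04 over all genes. It was −0.66 for cytokines and chemokines. Of these, 3 of 18 had an unadjusted p under 0.05, which is near the 17.7% of all genes. The 3 were Ccl2 (−1.38 ± 0.38), Ccl7, another monocyte chemokine (−1.93 ± 0.53), and Il18 (0.31). The median was 0.60 for meninges markers, with 7 of 15 at an unadjusted p under 0.05, against 17.7% of all genes. Col1a2 (1.45 ± 0.28) and Col3a1 (1.24 ± 0.50) were among the 7. Dcn, a collagen-binding proteoglycan, was the 1 of them that was lower. The matrix genes outside the meninges list had a median of 0.06. Immediate early genes had −0.34 and oligodendrocyte genes 0.32.

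Set 2 holds no TGF-β1 array and shares no array with set 1, and the named genes were read in it after albumin at 24 h. The 8 genes named above the sham were all above it after albumin in set 2, as 52.3% of all genes were, and 3 of them, Ccl2, Lgals3 and Vim, passed an adjusted p of 0.05, where 0.958% of 10330 genes passed higher. Lgals3 was 4.04 above the set 2 shams (adjusted p = 0.044) and Vim 1.47 (adjusted p = 0.0366), while Calca was 5.09 above (adjusted p = 0.0768) and Timp1 1.42 (adjusted p = 0.295). Of the 8 named below the sham, 5 were below it in set 2 (47.7% of all genes were) and 1, Ddc, passed (−3.95, adjusted p = 0.025; 0.368% of genes passed lower). Ube3al1 (2.77), Ythdf2 (1.33) and Arc (1.31) were above the set 2 shams. With the receptor blockers, all 8 of the first group lay below albumin alone and 0 passed, while 5 of the 8 in the other group lay above it and 0 passed. Both comparisons share the albumin arrays, and 83.2% of all genes above the shams after albumin lay below albumin with the blockers, so these sides are no result about the named genes. The values were −3.31 for Calca (adjusted p = 0.201), −3.55 for Ccl2 (adjusted p = 0.155) and −0.84 for Vim (adjusted p = 0.118). Col1a2 and Lox, above the set 1 sham after TGF-β1, were below the set 2 shams after albumin, by −2.40 and −1.84 (adjusted p = 0.0846 and 0.333). The set 2 calls rest on both shams, since 2 and 1 genes passed without the first or the second, against 137 with both. Of all genes, 0 were higher with the blockers (0%) and 2 lower (0.0194%).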

How the data were processed

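Cortical RNA of 19 samples was measured on Affymetrix rat expression arrays. The authors deposited log2 expression values made by GCRMA, per the submitters' processing notes, whose version is not given in the sources used here. This method subtracts background by probe sequence, so signals under log2 4 carry little order. Array medians ran from 5.09 to 5.17 in set 1 and from 6.05 to 6.18 in set 2, so levels were not compared across the sets. Of 31099 probe sets, 20832 name 1 gene, 436 several and 9831 none. Each of 14218 genes was represented by its brightest probe set on average across the 19 arrays, and the 10019 with log2 above 4 on at least 2 set 1 arrays were tested.

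limma 3.58.1 in R 4.3.3 fitted treatment plus time to the 10 set 1 arrays (lmFit, eBayes; 4 residual degrees of freedom), with p-values adjusted by Benjamini-Hochberg over all tested genes. The DOC array at 7 h was taken with those at 8 h. The standard errors of TGF-β1 minus sham had a median of 0.228 and ran from 0.145 to 2.03. Arrays give no read depth, and their number limits the precision. In set 1, p-values measure the spread around the additive model, not between animals of a group. Set 2 was fitted separately. The script was tested on simulated data. Summaries were made with pandas 2.3.3 and numpy 2.4.6 in Python 3.11.15, and figures with matplotlib 3.10.9. Promoter sequences are from RefSeq, assembly GRCr8.

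Named genes were the 4 with the smallest p per direction where none passed, the 5 furthest from the sham at the weakest time and at each time, the 5 with the largest difference of 48 h minus 8 h, the 4 with the smallest p on each list, and every measured member of the 5 TGF-β lists. Genes outside this rule, named after their values were seen, are Snap25, Gfap, Cybb, Cd68, P2ry12, Cxcl1, Il33, Cx3cl1, Nfkbiz, Cdk1, Mki67, Ccl7, Dcn and those called only under an alternative. The members and the gene lists were chosen with earlier results of these data known. Alternatives were another filter, probe set rule, centring, floor and prior, all 19 arrays with a set term, a stricter fold, and leaving out each array.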

Additional observations from a re-analysis of the deposited data

Results flagged for a closer look

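Paqr6, a progestin receptor, was set apart because TGF-β1 and DOC lay on opposite sides of the sham in every array. The sham had 6.09, the TGF-β1 arrays 6.99, 6.46 and 6.39, and the DOC arrays 4.99, 5.19 and 4.23 at 7, 24 and 48 h. The mean difference from the sham was 1.81 larger after TGF-β1 than after DOC. This difference was not tested, and both share the 1 sham array.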

How the results depend on the processing

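With 1 array per time and 1 sham, no count below has a replicate check within TGF-β1. In set 1 only treated arrays were left out in turn, never the sham. Genes higher in TGF-β1 than in the sham numbered 0 in the main setting, 10 with all 19 arrays, 7 with a trended and robust prior (Calca, Ccl2, Cd14, Fgl2, Lcp1, Lgals3 and Vim), 1 with mean log2 above 5 (Calca) and 0 to 5 when 1 array was left out. Genes lower numbered 0, and 1 with all 19 arrays and 6 with no filter. Against albumin and DOC, 190 were higher with all 19 arrays and 0 to 1 when 1 array was left out. Lower were 39 with all 19 arrays, 1 with no filter, 1 with the trended and robust prior, and 0 to 14 when 1 array was left out. At 3-fold in place of 2-fold, 96 genes were higher and 27 lower at 8 h, 119 and 34 at 24 h, and 270 and 31 at 48 h. In set 2, albumin against sham called 137 genes, 27 with no filter, 53 with the replicate block and 1 to 191 when 1 array was left out. Blockers against albumin called 2, 1 with no filter, 0 with the replicate block and 0 to 28 when 1 array was left out. Same-numbered set 2 arrays had correlations of deviations from −0.136 to 0.223, so the numbers were not taken as pairs, and set 1 shares no replicate numbers. Of 211 results for named genes, 36 changed sign under some alternative, none of them past the threshold. The cause was not tested. Signals under log2 4 limit what low genes such as Ccl2, Cd14 and Lcn2 can show.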
